A study of Mus musculus with 43 samples.

Results

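The genes described here are 50 genes of motile cilia and ependymal cells. They were chosen by name: a gene of the deposited table of counts belongs to them where its name is on a list of regulators, axonemal proteins and assembly factors of motile cilia and of other genes of ciliated and ependymal cells. They are 50 of the 56980 genes in the table, and the rule uses no measured value. The list itself was drawn up with earlier results of these data known. Their marker is Foxj1, the transcription factor of motile ciliogenesis.

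A motile cilium beats because dynein arms on its outer doublet microtubules slide the doublets past each other, while radial spokes, a central pair of microtubules and nexin links between doublets turn sliding into a regular stroke. In the brain, tufts of such cilia stand on the ependymal cells that line the ventricles and move cerebrospinal fluid. Ependymal cells derive from radial glia through a program in which Gmnc and Mcidas, relatives of geminin, start the amplification of centrioles and the transcription of Foxj1, and Foxj1 and RFX factors then drive the genes of the axoneme, whereas a cortical neuron carries a primary cilium without most of these parts.

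The study sequenced RNA of GFP-positive cells from the somatosensory cortex of C57BL/6JRccHsd mice to ask how Cux1, Cux2 and sex act on the transcriptome of layer 2/3 neurons. Plasmid DNA with GFP under the broadly active CAG promoter was injected into the ventricle lumen and electroporated in utero, so the cells exposed to it were those of the ventricular wall, and GFP-positive cells were later collected by FACS. Libraries were made from low-input total RNA with a kit that does not mark the strand, and sequenced as short single reads. Each library is from sorted cells in bulk.

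At E19 there were 4 libraries of each sex for WT, for Cux1 KO (germline Cux1 ΔC/ΔC) and for Cux2 KO (germline Cux2 −/−). At P4 there were 3 libraries of each sex for WT and for Cux2 KO, and 2 male libraries for Cux1 KO, in which a floxed Cux1 allele over a deleted allele (Cux1 f/Δ23) was recombined by electroporated pCAG-iCre, with pCALNL-GFP, whose GFP needs recombination, as the reporter. All other groups received pCAG-GFP. The Cux1 KO allele therefore differs between E19 and P4, and so does the plasmid mix between the Cux1 KO and WT libraries of P4. At P7 there were 2 female and 3 male WT libraries. Counts of all genes came to between 13321095 and 20715732 per library at E19, between 19499125 and 60559585 at P4 and between 15312029 and 27633827 at P7.

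Levels are given as CPM, counts scaled to the size of the library with edgeR's TMM factors over all 43 libraries. A floor of 3 counts per library, the most that a count of 0 allows, lay between 0.0438 and 0.235 CPM. The floor covers counting error only. In sorted cells sequenced in bulk, fewer cells that express a gene and less of its RNA per cell cannot be told apart.

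The targeted genes were read first. Cux1, a homeodomain factor of upper-layer neurons, was at 425, 506, 346 and 414 CPM in WT E19 females and at 288, 298, 312 and 349.6 CPM in Cux1 KO E19 females. In E19 males it was at 467, 361, 464 and 312 CPM in WT and 378, 310.0, 339 and 373 CPM in Cux1 KO. In P4 males it was at 88.1, 157 and 99.5 CPM in WT and 83.2 and 168 CPM in Cux1 KO. The Cux1 KO libraries of E19 females overlapped the WT range at its lower end, and the other pairs of groups overlapped as well. Cux2, its paralog, was at 448, 492, 371 and 514 CPM in WT and 343, 280.0, 417 and 358 CPM in Cux2 KO E19 females. In E19 males Cux2 was at 517, 414, 385 and 332 CPM in WT and 388, 408, 267 and 343 CPM in Cux2 KO. These groups overlapped. At P4, Cux2 was at 36.9, 34.5 and 28.1 CPM in WT and 32.9, 29.6 and 51.2 CPM in Cux2 KO females, and at 31.7, 31.4 and 46.4 CPM in WT and 36.1, 60.5 and 35.6 CPM in Cux2 KO males. Counts cover each gene as a whole, so the loss of an exon does not show in them, and these levels do not check the genotypes.

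edgeR put the log2 fold change of Cux1 in Cux1 KO over WT at -0.43 in E19 females (adjusted p = 0.286), -0.23 in E19 males (adjusted p = 0.543) and 0.12 in P4 males (adjusted p = 0.912). For Cux2 in Cux2 KO over WT it was -0.37 in E19 females, -0.24 in E19 males, 0.19 in P4 females and 0.26 in P4 males, with adjusted p between 0.731 and 0.999. Between WT E19 and WT P4 both fell, Cux1 by 1.77 on the log2 scale (adjusted p = 8.65e-08) and Cux2 by 3.63 (adjusted p = 6.96e-11). The sorted cells were checked against markers of the labelled cell type. The summed level of 12 markers of upper-layer excitatory neurons, Cux1 and Cux2 among them and Pou3f3 the most abundant, was 3930.1 to 6537 CPM in the libraries of E19 and 571 to 1388 CPM in those of P4 and P7. Over 16 markers of radial glia and astrocytes, with Slc1a3 the most abundant, it was 2733 to 4229 CPM at E19 and 5780.1 to 15552 CPM later. In every library of P4 and P7 the sum of the glial markers was thus above that of the upper-layer markers. The lists differ in size and in the abundance of their genes, so which sum is larger does not give the share of cells. E19 was sequenced in another round than P4 and P7, so stage and round cannot be told apart in these changes.

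Some libraries stood apart in the summed level of the 50 genes. Among the Cux2 KO E19 males it was 921, 285, 419.7 and 181 CPM in replicates 1 to 4. Replicate 1 was the highest of its group for 48 of the 50 genes, replicate 3 for the other 2, and replicate 4 was the lowest for 40. Among WT P7 it was 975 and 204 CPM in the females and 974, 143 and 948 CPM in the males, so female replicate 2 and male replicate 2 lay below the others. In both Cux1 KO P4 male libraries many members had no count at all, 32 in replicate 1 and 22 in replicate 2, where 6, 3 and 13 had none in the WT P4 males. The Cux1 KO libraries also detected the fewest genes, 17049 and 19115, where the WT P4 males detected 22379, 22546 and 20844. The totals of the Cux1 KO libraries were 19499125 and 40421655 counts.

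Within the other groups the summed level was 220.2, 227, 248 and 217 CPM in WT E19 females and 241, 190.3, 193 and 289 CPM in WT E19 males. It was 274, 208, 271 and 239 CPM in Cux1 KO E19 females and 252, 210.3, 192 and 307 CPM in Cux1 KO E19 males. In Cux2 KO E19 females it was 277, 299, 241 and 218 CPM. These groups overlapped one another. At P4 it was 688, 261 and 871 CPM in WT females and 285, 473 and 445 CPM in WT males, 556, 648 and 423 CPM in Cux2 KO females and 1047, 649 and 1052 CPM in Cux2 KO males, and 156 and 161 CPM in Cux1 KO males. The Cux1 KO males were the lowest group of P4 and the Cux2 KO males the highest by mean. Part of the sum needs care, since Rfx3 alone averaged 55.8 CPM over the 43 libraries, and 11 members share over 10% of their 60-base windows with another gene. Without those 11 the Cux1 KO P4 males came to 37.5 and 89.6 CPM and the WT P4 males to 192, 355 and 318 CPM.

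**Figure D1:**
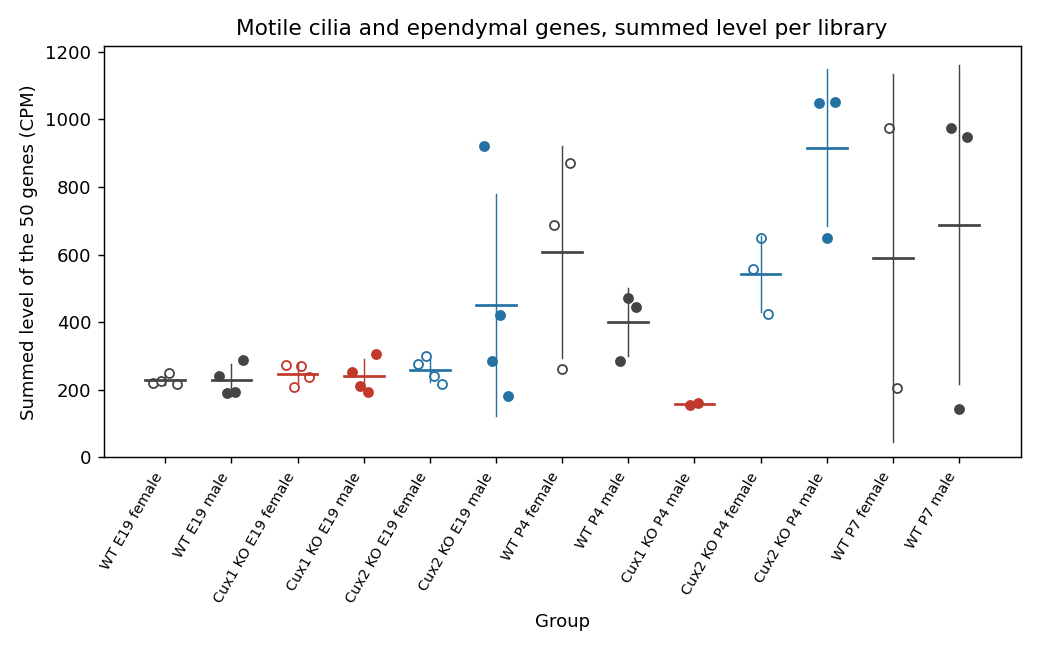
Summed level of the 50 genes in CPM (vertical axis) in each library, by group (horizontal axis), with females as open and males as filled points. Bars are group means and vertical lines 1 SD, drawn no lower than 0, with n of 2 to 4 libraries; the Cux1 KO P4 males, at 156 and 161 CPM, lie lowest at P4, and the Cux2 KO E19 males spread from 181 to 921 CPM.

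In WT, many structural genes of the axoneme were low at E19 and rose by P4, while no regulator rose. Of the 50 members, all tested, 28 rose and 2 fell between WT E19 and WT P4 (edgeR, adjusted p under 0.05 and a log2 fold change over 1 in size, with sex in the fit). The background was high, as 22.6% of all genes tested rose and 23.3% fell. The median log2 fold change was 1.97 over the members and 0.04 over all genes tested. E19 was sequenced in another round than P4 and P7, so stage and round cannot be told apart here. The levels below are the lowest, the median and the highest of the 8 WT libraries of E19 and of the 6 of P4.

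Among the 6 regulators none rose and 1 fell. Foxj1 was at 10.3, 17.1 and 35.0 CPM at E19 and 1.60, 10.95 and 26.4 CPM at P4. The stages overlapped, and the log2 fold change of -0.86 ± 0.44 (SE) had an adjusted p of 0.0993. Rfx3, an RFX factor that also serves primary cilia, was at 60.6, 68.2 and 83.4 CPM at E19 and 39.5, 49.6 and 56.2 CPM at P4. Every library of E19 lay above every library of P4 for Rfx3, yet its log2 fold change of -0.52 ± 0.11 (SE) (adjusted p = 6.42e-04 in edgeR) was under the fold threshold. Rfx2, its relative, was at 3.60, 6.37 and 9.54 CPM at E19 and 0, 4.91 and 11.6 CPM at P4, with overlap and a log2 fold change of -0.79 ± 0.77 (SE) (adjusted p = 0.384 in edgeR). Gmnc, which acts at the top of the program, was at 0.157, 0.527 and 0.899 CPM at E19 and 0, 0 and 0.533 CPM at P4. It had a count in all 8 libraries of E19 and in 1 of the 6 of P4, WT P4 female replicate 3, and fell by 3.42 on the log2 scale (SE 1.33, adjusted p = 0.0340 in edgeR). Mcidas, which acts after Gmnc, was at 0.186, 1.12 and 3.85 CPM at E19 and 0, 1.07 and 4.97 CPM at P4, and Ccno, a cyclin-like protein that the amplification of centrioles needs, at 1.55, 2.51 and 6.80 CPM at E19 and 0, 1.06 and 5.15 CPM at P4. Both overlapped between the stages, with adjusted p of 0.999 and 0.496. Mcidas and Ccno are neighbours on chromosome 13.

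Of the 4 radial spoke genes, 3 rose. Rsph1, a protein of the spoke head, was at 0.471, 1.24 and 4.22 CPM at E19 and 9.03, 23.9 and 64.0 CPM at P4. Every library of P4 lay above every library of E19, at a log2 fold change of 4.19 ± 0.55 (SE) (adjusted p = 8.49e-06 in edgeR). Rsph9, another protein of the spoke head, was at 16.4, 19.7 and 25.3 CPM at E19 and 22.8, 40.0 and 72.1 CPM at P4. It was well above the floor at E19, overlapped between the stages in its extremes and rose by 1.09 on the log2 scale (SE 0.20, adjusted p = 2.13e-04 in edgeR). 20.9% of its 60-base windows occur in another gene, so its count is less certain. Cfap206 rose as well (log2 fold change 3.24 ± 0.98 (SE)), and Rsph4a, of the spoke head, did not pass (adjusted p = 0.245 in edgeR).

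Of the 8 genes of the dynein arms, 5 rose and none fell. Dnah12, a heavy chain of the inner arm, was at 0, 0 and 0.716 CPM at E19 and 0.0146, 3.72 and 6.97 CPM at P4. It was at 0 in 5 libraries of E19, while at P4 WT male replicates 1 and 3 stayed under their floor, and the log2 fold change was 3.92 ± 1.34 (SE) (adjusted p = 0.0179 in edgeR). The call was lost without WT P4 male replicate 2, at an adjusted p of 0.238. Dnai1, an intermediate chain of the outer arm, was at 0.392, 0.650 and 1.74 CPM at E19 and 1.87, 5.52 and 10.5 CPM at P4. The stages did not overlap for it, and it rose by 2.61 on the log2 scale (SE 0.45, adjusted p = 1.16e-04 in edgeR). Dnai2, the partner chain of Dnai1, was at 1.49, 3.01 and 4.36 CPM at E19 and 3.14, 5.63 and 18.3 CPM at P4. It overlapped in part and rose by 1.22 (SE 0.38, adjusted p = 0.0101 in edgeR). The heavy chain gene Dnah6 rose by 3.47 on the log2 scale and Dnah7a by 1.45. Dnah5, Dnah9 and Dnah11 did not pass, with adjusted p between 0.0829 and 0.720 in edgeR.

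Dynein arms are put together in the cytoplasm by assembly factors, of which 2 of 3 rose. Dnaaf1 was at 0, 0.128 and 0.286 CPM at E19 and 0, 3.57 and 8.53 CPM at P4. All 8 libraries of E19 held a few counts or none and the P4 library at 0 was WT male replicate 3, at a log2 fold change of 4.46 ± 0.96 (SE) (adjusted p = 8.37e-04 in edgeR). Zmynd10 was at 1.43, 3.65 and 6.87 CPM at E19 and 2.09, 6.57 and 14.7 CPM at P4. It overlapped between stages and passed narrowly, at 1.11 ± 0.43 (SE) (adjusted p = 0.0323 in edgeR). Dnaaf3 did not pass (adjusted p = 0.745).

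Of the 7 genes of the axonemal ruler and the nexin-dynein regulatory complex, 5 rose. Ccdc153 was at 0, 0 and 0.215 CPM at E19 and 2.56, 16.1 and 36.0 CPM at P4. It had 6 counts over the 8 libraries of E19 and was at 0 in 6 of them, while every P4 library had it above the floor, and edgeR fitted a log2 fold change of 8.43 ± 0.84 (SE) (adjusted p = 4.42e-07), whose size rests on those few counts. Drc3, of the regulatory complex, was at 1.65, 2.87 and 7.23 CPM at E19 and 9.23, 18.4 and 39.3 CPM at P4. The stages did not overlap for Drc3, at a log2 fold change of 2.74 ± 0.36 (SE) (adjusted p = 9.27e-06 in edgeR). Ccdc40, which with Ccdc39 forms the ruler that spaces spokes and arms, was at 18.7, 22.3 and 33.9 CPM at E19 and 12.3, 15.6 and 30.8 CPM at P4. Its stages overlapped and it did not pass, with a fold under the threshold, at -0.45 ± 0.19 (SE) (adjusted p = 0.0531 in edgeR). Drc7 just passed, at 2.44 ± 1.00 (SE) (adjusted p = 0.0429 in edgeR).

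The central pair apparatus had 4 of its 8 genes risen. Spag17 was at 0, 0 and 0.215 CPM at E19 and 0, 2.24 and 10.6 CPM at P4. It had 6 counts over the 8 libraries of E19, all in WT male replicates 3 and 4, and WT P4 female replicate 2 was at 0, at a fitted log2 fold change of 6.31 ± 1.36 (SE) (adjusted p = 8.36e-04 in edgeR). Spag16, which binds the central pair, was at 0.175, 0.452 and 0.901 CPM at E19 and 0, 5.91 and 16.8 CPM at P4. WT P4 male replicate 1 was at 0 and the other 5 libraries of P4 lay above all those of E19, at 3.86 ± 0.79 (SE) (adjusted p = 5.70e-04 in edgeR). Spag6l, another gene of the central pair, was at 1.33, 2.21 and 3.72 CPM at E19 and 2.76, 10.6 and 26.8 CPM at P4. It overlapped a little and rose by 2.45 on the log2 scale (SE 0.52, adjusted p = 7.85e-04 in edgeR). Hydin, whose product builds a projection of the central pair, lay just outside the threshold, at 2.41 ± 1.08 (SE) (adjusted p = 0.0604 in edgeR).

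Among the 9 genes of the doublet microtubules, 5 rose and 1 fell. Cfap126 was at 0.420, 0.757 and 1.63 CPM at E19 and 7.01, 14.9 and 36.5 CPM at P4. All P4 libraries lay above all E19 libraries, at a log2 fold change of 4.37 ± 0.43 (SE) (adjusted p = 4.09e-07 in edgeR). Tekt4, a tektin, which is a filament inside the doublet, was at 0, 0.526 and 0.859 CPM at E19 and 3.54, 6.52 and 12.1 CPM at P4. The stages were apart for Tekt4 too, at 3.87 ± 0.60 (SE) (adjusted p = 4.26e-05 in edgeR). Tekt1, another tektin, was at 1.30, 3.39 and 6.30 CPM at E19 and 3.18, 12.6 and 36.0 CPM at P4. It overlapped in part and rose by 2.23 (SE 0.48, adjusted p = 8.29e-04 in edgeR). The tektin Tekt2 went the other way, from 8.11, 12.1 and 14.3 CPM at E19 to 0, 2.29 and 9.28 CPM at P4. WT P4 female replicate 3 reached the E19 range and male replicate 3 was at 0, and Tekt2 fell by 1.98 on the log2 scale (SE 0.71, adjusted p = 0.0232 in edgeR). 16.0% of the windows of Tekt2 occur in another gene. Cfap53 lay just outside the threshold (log2 fold change 2.90 ± 1.28 (SE), adjusted p = 0.0577 in edgeR).

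Of the last 5 genes, 4 rose. Tmem212, a membrane protein gene used as an ependymal marker, was at 0 in all 8 WT libraries of E19 and at 2.46, 9.04 and 17.3 CPM at P4. Every P4 library had it, so it was at least 48.1-fold higher at P4 against a floor of 3 counts per library (adjusted p = 1.61e-05 in edgeR). Dynlrb2, a light chain of dynein, was at 0, 1.10 and 2.79 CPM at E19 and 13.8, 39.5 and 81.4 CPM at P4. The stages did not overlap for it, at 5.08 ± 0.57 (SE) (adjusted p = 1.70e-06 in edgeR). The adenylate kinase genes Ak7 rose by 3.07 on the log2 scale and Ak9 by 3.07. The uncharacterised 1700003E16Rik did not pass (adjusted p = 0.199 in edgeR). With the replicate number as a block in the fit, 25 of the 50 members passed, 24 up and 1 down, where 44.1% of all genes passed. With no filter on low counts, and without WT E19 female replicate 1, 1 member was likewise called down. The falls of Gmnc and Tekt2 thus did not both hold in these settings.

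**Figure D2:**
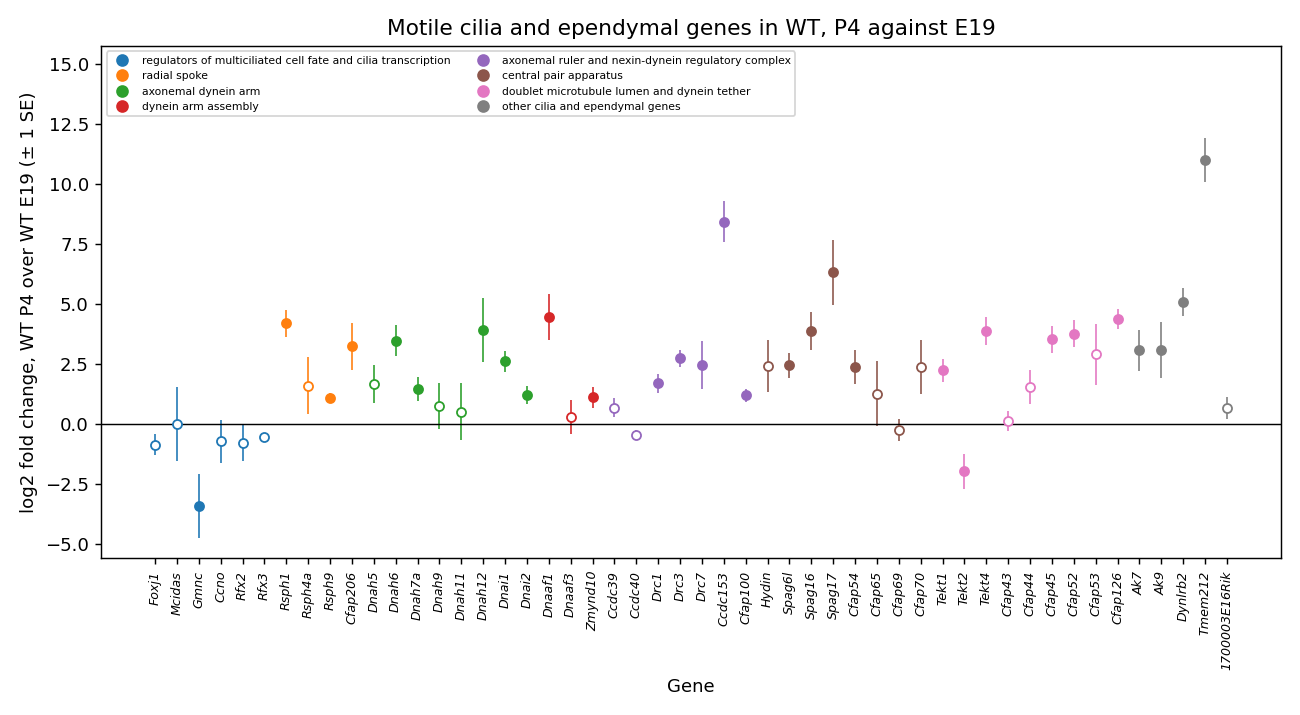
Fitted log2 fold change of WT P4 over WT E19 (vertical axis) for each of the 50 genes (horizontal axis), coloured by role, with lines of 1 SE and n of 6 and 8 libraries. Filled points passed the test and the fold threshold; none of the 6 regulators rose, and Tmem212, at 0 in every library of E19, has the highest fitted value.

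The order of the genes by level differed between the stages. Per kilobase of merged exon, the mean level in WT E19 was highest for Foxj1, at 6.26 CPM per kb, then for Tekt2 at 5.79 and Rfx3 at 5.73 CPM per kb. Ccdc40 came next at 3.91 and Rsph9 at 2.53 CPM per kb. Foxj1 varied over the 8 libraries with an SD of 7.80 CPM on a mean of 19.6 CPM, so the leading genes do not differ beyond their spread. In WT P4 Dynlrb2 led at 35.7 CPM per kb, followed by Rsph1 at 21.2 and Tmem212 at 10.6 CPM per kb. Cfap126, Tekt1 and Ccdc153 followed between 9.06 and 10.4 CPM per kb. In WT P7 Tmem212 led at 49.0 CPM per kb, then Dynlrb2 at 39.3 and Ccdc153 at 23.9 CPM per kb. The SD of Tmem212 over the 5 libraries of P7, 39.8 CPM on a mean of 43.5 CPM, was nearly as large as its mean, and these neighbours overlap.

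Between WT P4 and WT P7, which were sequenced in the same round, 1 of the 50 members rose and none fell (edgeR, same thresholds, sex in the fit), where 1.42% of all genes rose. At an unadjusted p under 0.05 there were 2 members higher and 1 lower, where 22.0% of all genes were in either direction. As a median, the log2 fold change was 0.51 over the members and 0.02 over all genes, and it turned to -0.06 over the members with the replicate number as a block. With each library left out it ran from 0.21, without WT P7 male replicate 3, to 0.89, without WT P7 female replicate 2. The member that rose was Dnai1. It was at 17.7 and 11.8 CPM in the WT P7 females and 13.8, 17.7 and 21.5 CPM in the males, against 1.87, 5.52 and 10.5 CPM over WT P4. All 5 libraries of P7 lay above all 6 of P4, also female replicate 2 and male replicate 2, at a log2 fold change of 1.75 ± 0.39 (SE) (adjusted p = 0.0277 in edgeR). The call was lost without WT P4 female replicate 2, WT P4 male replicate 2, WT P7 female replicate 1, WT P7 male replicate 2 or WT P7 male replicate 3, each left out in turn, and without both low P7 libraries, where 0 were called. Over the alternatives its adjusted p ranged from 1.09e-04 to 0.0952. Just outside stood Rfx3, whose fold was under the threshold (-0.61 ± 0.15 (SE), adjusted p = 0.0468 in edgeR). Next were Cfap100 (0.90 ± 0.28 (SE), adjusted p = 0.0873 in edgeR) and Tmem212 (2.22 ± 1.18 (SE), adjusted p = 0.311 in edgeR).

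The libraries of P7 fell into high and low ones for most axonemal genes. Foxj1 was at 35.1 and 1.47 CPM in the WT P7 females and 13.4, 0.717 and 21.5 CPM in the males. Dynlrb2 was at 72.8 and 6.31 CPM in the WT P7 females and 73.9, 0.394 and 72.5 CPM in the males. Tmem212 was at 57.3 and 2.68 CPM in the WT P7 females and 86.1, 0.0358 and 71.6 CPM in the males. For each of them female replicate 2 and male replicate 2 were far below the others, and male replicate 2 the lowest. Rsph1 was at 49.3 and 9.87 CPM in the WT P7 females and 70.7, 0.215 and 53.1 CPM in the males, and Ccdc153 at 59.3 and 8.70 CPM in the WT P7 females and 80.9, 0.0358 and 96.7 CPM in the males, with the same libraries low. Rfx3, in contrast, was at 29.3 and 33.8 CPM in the WT P7 females and 37.0, 23.1 and 35.4 CPM in the males, with female replicate 2 the higher of its sex and male replicate 2 the lowest. Rsph9 was at 64.0 and 37.0 CPM in the WT P7 females and 56.5, 28.1 and 51.0 CPM in the males and Cfap100 at 21.3 and 19.8 CPM in the WT P7 females and 23.9, 20.6 and 15.6 CPM in the males, with a narrower range.

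Other markers were read beside this split. Over 9 markers of interneurons, with Dlx1 the most abundant, the summed level was 358 and 93.7 CPM in the WT P7 females and 374, 73.8 and 277 CPM in the males, lowest in the replicates in which the cilia genes were low. Over 11 cell cycle genes, with Top2a the most abundant, it was 1101 and 891 CPM in the females and 1358, 655 and 1155 CPM in the males, again lowest in those replicates. Over the 10 ependymal genes outside the axoneme it was 1887 and 2093 CPM in the females and 1871, 2366 and 1653 CPM in the males, highest in those replicates within each sex. That list is not specific, as Aqp4 and S100b are genes of astrocytes as well and Cd24a is a gene of many cell types. The sum was also highest in those replicates for 9 genes of the oligodendrocyte lineage, at 4355 and 5099 CPM in the females and 3311, 4863 and 4397 CPM in the males, and for 13 genes of the choroid plexus, at 431 and 670.3 CPM and 329.6, 593 and 470.5 CPM. Nearly all of the latter is Enpp2, at 416 and 665 CPM and 312, 588 and 456 CPM, a gene that oligodendrocytes express as well. Their part in the split was not tested. Without female replicate 2 and male replicate 2, an alternative chosen after seeing the data, edgeR called 0 members between WT P4 and WT P7, with 11 higher and 1 lower at an unadjusted p under 0.05, where 7.69% of all genes were higher and 5.89% lower, and a median log2 fold change of 1.22. Since these libraries were left out for being low in the members, the higher values were set in part by that choice.

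The comparison of Cux1 KO with WT at E19 asks whether loss of Cux1 from the germline changes these genes before birth. Foxj1 and most other members overlapped WT in both sexes, and those that did not went in both directions. In females, 0 of the 38 members tested passed (edgeR, adjusted p under 0.05 and a log2 fold change over 0.5 in size), where 0.0576% of all genes did. DESeq2 called 0 as well, and 0.0964% of all genes, and 3 members were higher at an unadjusted p under 0.05, where 3.04% of all genes were. In males 0 of the 38 tested passed in edgeR and 1 in DESeq2, the ruler gene Ccdc39, where 0.0979% of all genes passed in edgeR and 0.246% in DESeq2. At an unadjusted p under 0.05 there were 2 higher and 2 lower, where 10.4% of all genes were different in either direction. The median log2 fold change over the members tested was 0.16 in females and -0.04 in males, and 0.01 and -0.01 over all genes. Without Cux1 KO female replicate 3 that of females was 0.01, and that of males ran from -0.31, without Cux1 KO replicate 4, to 0.25, without WT replicate 4, so that of males has no firm direction. The WT libraries here are also the controls of the Cux2 KO comparisons, at E19 in both sexes and at P4 in males.

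Foxj1 was at 16.8, 16.8, 27.2 and 17.4 CPM in WT females and 27.5, 13.6, 30.4 and 20.4 CPM in Cux1 KO females. In males it was at 18.5, 14.7, 10.3 and 35.0 CPM in WT and 18.3, 12.5, 9.93 and 38.0 CPM in Cux1 KO. The groups overlapped in each sex, with replicate 4 the highest of both male groups, at log2 fold changes of 0.23 ± 0.23 (SE) and -0.04 ± 0.41 (SE). Ccdc39 was at 11.2, 9.41, 6.45 and 9.09 CPM in WT males and 17.2, 14.3, 14.5 and 15.5 CPM in Cux1 KO males. The Cux1 KO males all lay above the WT males, at a log2 fold change of 0.74 ± 0.17 (SE) with an adjusted p of 0.216 in edgeR and a range of 0.0187 to 0.479 over the alternatives. In females Ccdc39 was at 15.0, 9.85, 11.7 and 6.37 CPM in WT and 17.4, 10.2, 11.7 and 12.3 CPM in Cux1 KO, with overlap. 24.2% of the 60-base windows of Ccdc39 occur in another gene. The other members under an unadjusted p threshold of 0.05 in males were Cfap69 (log2 fold change 0.90), Dnah7a (-1.16) and Dnah9 (-1.42), for which the male groups did not overlap either, with Cux1 KO above WT for Cfap69 and below it for Dnah7a and Dnah9. In females they were Drc3 (0.53), Tekt2 (0.41) and Cfap43 (0.51), of which Tekt2 alone was apart, and Ak9, not tested for want of counts, lay below WT in every Cux1 KO female.

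Cux2 KO was compared with WT at E19 in the same way. In males most members were highest in replicate 1, and in females nearly all overlapped WT. In males 0 of the 40 members tested passed in edgeR, where 0.121% of all genes did, and 1, the intermediate chain gene Dnai2, passed in DESeq2, where 0.222% of all genes did. At an unadjusted p under 0.05, 22 members were higher and none lower, where 4.80% of all genes were higher. The median log2 fold change was 1.55 over the members tested and -0.01 over all genes, and 0.78 over the members without replicate 1. Without replicates 1 and 3, an alternative chosen after seeing the data, 0 passed, 2 members were higher at an unadjusted p under 0.05, where 3.52% of all genes were, and the median was 0.13. These replicates were the highest Cux2 KO males by summed level, so leaving them out was bound to make the difference smaller. In females 0 of the 39 tested passed in edgeR and 0 in DESeq2, where 0.0287% of all genes passed in edgeR and 0.0730% in DESeq2. Under an unadjusted p of 0.05, 5 were higher and none lower, where 2.96% of all genes were higher, and the median log2 fold change was 0.47 over the members tested against 0.01 over all genes, and 0.25 over the members without Cux2 KO replicate 2. Whether the genotype acts differently in the sexes at E19 was not tested.

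Among the regulators, Foxj1 was at 187, 31.6, 71.8 and 11.1 CPM in Cux2 KO males 1 to 4 and at 18.5, 14.7, 10.3 and 35.0 CPM in WT males. Replicate 1 stood alone, replicate 3 was next, and replicates 2 and 4 lay within the WT range, at a log2 fold change of 1.93 ± 0.65 (SE) (adjusted p = 0.524 in edgeR). Mcidas was at 11.97, 2.82, 4.26 and 1.36 CPM and Ccno at 31.3, 4.66, 10.6 and 5.02 CPM in Cux2 KO males, with replicate 1 highest for both. In WT males Mcidas was at 3.85, 0.235, 0.186 and 1.79 CPM and Ccno at 3.09, 1.73, 1.74 and 6.80 CPM. Rfx2 was at 15.9, 6.89, 8.09 and 6.78 CPM in Cux2 KO males and 5.01, 6.75, 3.60 and 9.52 CPM in WT males. Rfx3 was at 85.9, 66.3, 55.9 and 48.7 CPM and 82.0, 60.6, 63.6 and 69.8 CPM. For Rfx3 replicate 1 was the highest by a small margin, and the groups overlapped. Gmnc was at 2.44, 0.657, 0.284 and 0 CPM and 0.408, 0.157, 0.621 and 0.787 CPM, with Cux2 KO replicate 4 at 0.

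Many structural genes were likewise highest in replicate 1. Rsph1 was at 30.0, 1.97, 9.79 and 0.339 CPM in Cux2 KO males and 1.46, 0.471, 0.745 and 4.22 CPM in WT males. Dynlrb2 was at 18.5, 2.23, 9.36 and 0.474 CPM and 1.11, 1.10, 0 and 2.79 CPM. Dnai2 was at 20.9, 5.06, 8.87 and 6.30 CPM and 3.90, 1.49, 2.11 and 4.36 CPM. Replicate 1 was far above the rest for each, and replicate 4 was not above the WT range except for Dnai2, for which every Cux2 KO male lay above every WT male (log2 fold change 1.77 ± 0.46 (SE), adjusted p = 0.370 in edgeR). Spag6l was at 15.8, 2.17, 5.75 and 1.22 CPM in Cux2 KO males and 2.33, 1.33, 3.72 and 3.01 CPM in WT males. Tekt1 was at 13.1, 4.53, 11.2 and 3.39 CPM and 3.73, 1.65, 2.11 and 6.30 CPM. Tmem212, at 0 in the WT libraries of E19, had counts in Cux2 KO male replicates 1 and 3 alone among the 24 libraries of E19, at 0.244 and 0.213 CPM. Genes that varied less among these males were Tekt2, at 15.7, 15.5, 14.8 and 9.83 CPM in Cux2 KO males, and Rsph9, at 22.9, 17.7, 21.5 and 20.3 CPM.

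In Cux2 KO females Foxj1 was at 34.1, 38.1, 17.5 and 18.3 CPM, against 16.8, 16.8, 27.2 and 17.4 CPM in WT females. Replicates 1 and 2 lay above the WT range and replicates 3 and 4 within it. Ccno was at 5.495, 5.20, 2.58 and 8.23 CPM in Cux2 KO and 2.88, 1.55, 2.73 and 2.29 CPM in WT females, with overlap through replicate 3 and a log2 fold change of 1.19 ± 0.36 (SE) (adjusted p = 0.745 in edgeR). Dnai2 was at 4.34, 5.91, 3.49 and 7.65 CPM in Cux2 KO and 2.58, 3.41, 2.61 and 4.14 CPM in WT females, with overlap again. Rsph1 was at 3.18, 4.70, 1.36 and 1.18 CPM and 0.899, 1.03, 2.29 and 2.04 CPM.

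Beside the high members in Cux2 KO E19 males, the summed level over 81 other genes of the motile axoneme, with Cfap20 the most abundant, was 954, 554, 608 and 434 CPM, highest in replicate 1. Over 9 genes of the oligodendrocyte lineage, with Olig1 the most abundant, it was 669, 609.6, 964 and 394 CPM, highest in replicate 3. Over 16 markers of radial glia and astrocytes it was 3595, 3596, 4229 and 3849.9 CPM, and that of replicate 3 was the highest of the 24 libraries of E19, against 2834, 3954, 2853 and 3499 CPM in WT males. Over 10 ependymal genes outside the axoneme, of which Cd24a alone, a gene of many cell types, averaged 778 CPM, it was 2066, 1871, 2023 and 1951 CPM, and over 13 genes of the choroid plexus, most of it Enpp2, 34.5, 22.4, 34.1 and 17.0 CPM. Ttr, the defining product of the choroid plexus, was at 0 in these 4 libraries. Their part in the result was not tested.

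At P4, Cux1 KO males lacked counts for many of these genes. Of the 50 members, 20 were at 0 in both libraries: Foxj1, Rfx2 and Gmnc of the regulators and 17 of the other members. Among the 45 members tested, 17 were at 0 in both, as were 8.76% of all genes tested. Genes at 0 there passed the filter on low counts through the WT males alone, so these counts and the medians over the 45 are partly set by that filter and do not by themselves show a drop. At an unadjusted p under 0.05 edgeR put 15 members lower and none higher, where 12.3% of all genes were lower. After adjustment 0 members passed in edgeR, where 0% of all genes passed, while 12 passed downward in DESeq2, where 2273 of 27186 genes (8.36%) passed in either direction, and 17 in an edgeR fit of all P4 groups together, where 2597 of 23658 genes did. The median log2 fold change over the 45 was -7.28 as fitted and -3.47 with the genes at 0 set at their bound, and -0.18 over all genes tested as fitted. With no filter it was -7.33 over 49 members and -0.46 over all genes. With a WT male left out fewer members could be tested, and their median was -2.43 over 38 without replicate 1, -1.89 over 35 without replicate 2 and -2.55 over 40 without replicate 3. With a Cux1 KO male left out it was -8.15 over 49 without replicate 1 and -9.13 over 49 without replicate 2.

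Foxj1 was at 1.60, 12.6 and 6.03 CPM in the WT males and at 0 in both Cux1 KO males. It was thus at least 61.3-fold lower by the group means, against the floor of 3 counts per library (adjusted p = 0.0934 in edgeR, range over the alternatives 8.85e-04 to 0.408), and WT male replicate 1 was the lowest of its group. This bound and those of Rfx2 and Dnah6 below use means of WT males that differed widely. Their size depends on which WT males are included. The bounds allow for counting error only, not for variation between libraries. WT male replicate 3, with 60559585 counts in all, had no count of Rfx2, where replicate 1 had 199. Rfx2 was at 3.58, 0.962 and 0 CPM in the WT males and at 0 in both Cux1 KO males. WT male replicate 3 was at 0 too, and Rfx2 was at least 13.7-fold lower by the group means. Rfx3 was at 41.7, 54.9 and 39.5 CPM in WT males and 14.4 and 24.7 CPM in Cux1 KO males. It had ample counts in both Cux1 KO libraries and lay below WT in both, at a log2 fold change of -1.23 ± 0.37 (SE) (adjusted p = 0.156 in edgeR). Mcidas was at 0, 2.05 and 0 CPM in WT males and 0 and 0.0232 CPM in Cux1 KO males, and Gmnc at 0 in all 5 of these libraries. Ccno was at 1.06, 1.06 and 0.234 CPM in WT males and 2.76 and 0 CPM in Cux1 KO males, the highest of the 5 being Cux1 KO replicate 1.

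Among the spoke genes, Rsph1 was at 9.03, 25.8 and 21.9 CPM in WT males and 0 and 0.0463 CPM in Cux1 KO males. Cux1 KO replicate 1 had no count and replicate 2 had 2, and edgeR gave an adjusted p of 0.0764 (range over the alternatives 2.53e-17 to 0.408). Rsph9 was at 22.8, 42.2 and 72.1 CPM in WT males and 57.2 and 35.8 CPM in Cux1 KO males, with overlap. Cfap206 was at 0 in both Cux1 KO males and at 11.04, 6.94 and 0 CPM in the WT males, of which replicate 3 was at 0 as well. Among the dynein genes Dnah6 was at 1.02, 5.27 and 12.3 CPM in the WT males and at 0 in both Cux1 KO males, at least 56.2-fold lower. Dnah7a was at 1.15, 7.42 and 4.46 CPM in WT males and 15.3 and 6.16 CPM in Cux1 KO males, higher in Cux1 KO replicate 1 than in any WT male, and 32.5% of its windows occur in another gene. Dnai1 was at 5.25, 2.94 and 1.87 CPM in WT males and 0 and 6.95 CPM in Cux1 KO males, so its Cux1 KO libraries differed from each other. Dnai2 was at 4.12, 3.14 and 7.14 CPM in WT males and 1.05 and 7.34 CPM in Cux1 KO males, with the same split.

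Several structural genes had counts in Cux1 KO replicate 2 and few or none in replicate 1. Drc3 was at 19.6, 14.9 and 17.1 CPM in WT males and 0.0502 and 9.43 CPM in Cux1 KO males. Ccdc40 was at 14.3, 16.1 and 16.6 CPM in WT males and 0 and 8.83 CPM in Cux1 KO males. Tekt1 was at 9.96, 14.4 and 10.8 CPM in WT males and 0 and 4.42 CPM in Cux1 KO males. Both Cux1 KO libraries lay below every WT male for each of them. Without Cux1 KO replicate 2, with the lone sample assumed to vary like the WT, these were the 3 members of 49 tested that edgeR called, all lower, where 639 of 22423 genes (2.85%) passed. Zmynd10 was at 4.91, 4.71 and 12.9 CPM in WT males and 0 and 2.76 CPM in Cux1 KO males and Spag6l at 4.08, 20.5 and 3.24 CPM in WT males and 3.16 and 7.48 CPM in Cux1 KO males. Spag6l overlapped the WT males, whereas Zmynd10 did not. Cfap126 was at 7.73, 13.1 and 16.7 CPM in WT males and 4.02 and 2.62 CPM in Cux1 KO males, below WT in both, at a log2 fold change of -1.93 ± 0.62 (SE) (adjusted p = 0.177 in edgeR).

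Dynlrb2, Tmem212 and Ccdc153 had few counts or none in Cux1 KO males. Dynlrb2 was at 13.8, 36.5 and 42.5 CPM in WT males and 0.100 and 0.0463 CPM in Cux1 KO males, from 2 counts in each Cux1 KO library. Tmem212 was at 7.35, 10.7 and 3.49 CPM in WT males and 0.0502 and 0.0232 CPM in Cux1 KO males, from 1 count in each. Ccdc153 was at 5.83, 16.9 and 15.2 CPM in WT males and 0 and 0.0232 CPM in Cux1 KO males, from no count and 1. In none of them did the groups overlap, with adjusted p of 0.0764 for Dynlrb2, 0.0764 for Tmem212 and 0.0764 for Ccdc153 in edgeR. For the 19 members at 0 in both Cux1 KO males and present in WT, the lower bounds ran from 10.2-fold for Cfap70 to 64.7-fold for Cfap45, genes of the central pair and the doublet. In the WT males Cfap70 was at 0.162, 1.01 and 2.19 CPM and Cfap45 at 2.48, 12.5 and 6.37 CPM. The size of these bounds thus depends on which WT males are included, and they too allow for counting error only. At the other end, Rsph9, Dnah7a, Ccdc39, Cfap100 and Rfx3 had ample counts in each Cux1 KO library.

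Several other lists were low in these libraries too. Over the 81 other genes of the motile axoneme the summed level was 480.0 and 503 CPM in Cux1 KO males, with 57 and 43 of the genes at 0, and 791, 937 and 752 CPM in WT males. Over 10 genes of endothelial and mural cells, with Rgs5 the most abundant, it was 0.251 and 88.3 CPM in Cux1 KO and 548, 357 and 502 CPM in WT males. Over 6 genes of intermediate progenitors, with Gadd45g the most abundant, it was 77.2 and 129 CPM in Cux1 KO and 395, 336 and 273 CPM in WT. Over 9 oligodendrocyte lineage genes it was 1242 and 1107 CPM and 3009, 2112 and 2271 CPM, and over 9 interneuron genes 178 and 301 CPM and 369, 564 and 430.3 CPM. Over 11 cell cycle genes it was 1254 and 524 CPM in Cux1 KO and 1547, 1769 and 1745 CPM in WT, below WT in both. Below WT in both were also the 10 ependymal genes outside the axoneme, at 815 and 904 CPM and 1089, 932 and 1234 CPM, and 19 genes of the multiciliogenesis program outside the members, at 510.3 and 512 CPM and 849.5, 818 and 825 CPM. The 13 choroid plexus genes, again nearly all Enpp2, overlapped, at 129.7 and 326 CPM and 343, 245 and 499 CPM. Markers of radial glia and astrocytes overlapped in sum as well, at 9527 and 6595 CPM in Cux1 KO and 6844, 7558 and 5780.1 CPM in WT. The upper-layer neuron markers summed to 1235 and 1388 CPM and 973, 1009.9 and 1013 CPM, above WT in both. The part of cell composition and of the fewer genes detected in these 2 libraries was not tested, and genotype and plasmid mix cannot be told apart.

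**Figure D3:**
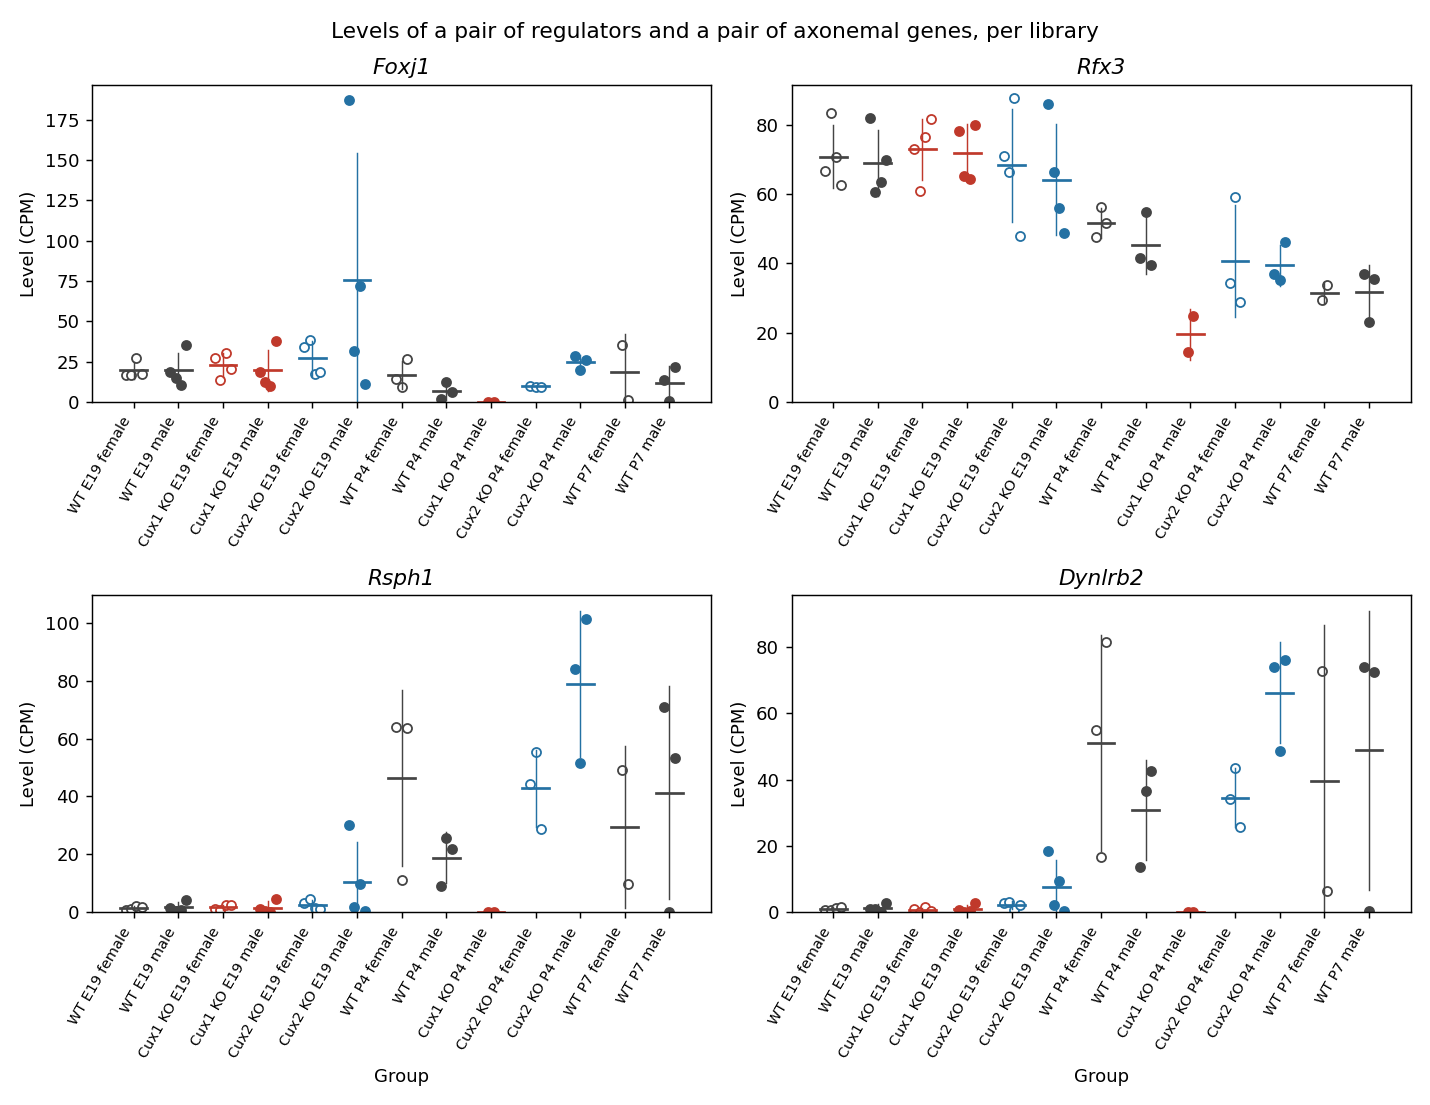
Level in CPM (vertical axes) of Foxj1, Rfx3, Rsph1 and Dynlrb2 in each library, by group (horizontal axes), with females open and males filled, bars at group means and lines of 1 SD drawn no lower than 0. In the Cux1 KO P4 males Foxj1 is at 0 in both libraries and Rfx3 at 14.4 and 24.7 CPM, and Cux2 KO E19 male replicate 1 holds the highest Foxj1 level, 187 CPM.

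In P4 males the members tended to be higher in Cux2 KO than in WT, and in P4 females their median had no firm direction. In males every Cux2 KO library lay above every WT library for 26 of the 49 members tested and below for none, where 6.80% of all genes lay above. At an unadjusted p under 0.05, 16 members were higher and none lower, where 2.79% of all genes were higher. After adjustment 0 members passed in edgeR, where 0% of all genes did, and 5 passed in DESeq2, where 75 of 28970 genes (0.259%) did, all 5 higher: Rsph1, Drc3, Ccdc153, Tmem212 and 1700003E16Rik. As a median, the log2 fold change was 1.36 over the members tested and 0.00 over all genes. In females 0 of the 49 tested passed in edgeR and 0 in DESeq2, where 0% of all genes passed in edgeR and 0.141% in DESeq2, and 1 member, Dnah11, was higher at an unadjusted p under 0.05, where 4.56% of all genes were higher. The median there was -0.26 over the members and 0.02 over all genes. It turned to 0.04 with the replicate number as a block and to 0.43 without WT P4 female replicate 3, and was -0.66 without WT P4 female replicate 2.

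Foxj1 was at 1.60, 12.6 and 6.03 CPM in WT males and 28.4, 19.98 and 25.7 CPM in Cux2 KO males. In females it was at 14.2, 9.30 and 26.4 CPM in WT females and 10.2, 9.40 and 9.25 CPM in Cux2 KO females. All Cux2 KO males lay above all WT males, and in females the groups overlapped with the Cux2 KO libraries close together. The log2 fold change was 1.86 ± 0.69 (SE) in males (adjusted p = 0.784 in edgeR, range over the alternatives 0.260 to 1.00) and -0.79 ± 0.38 (SE) in females (adjusted p = 0.697 in edgeR). Of the other regulators, Ccno was at 1.06, 1.06 and 0.234 CPM in WT males and 4.26, 2.41 and 1.98 CPM in Cux2 KO males. Rfx2 was at 3.58, 0.962 and 0 CPM in WT males and 6.02, 4.32 and 5.06 CPM in Cux2 KO males. Neither overlapped between the genotypes in males. Mcidas was at 0, 2.05 and 0 CPM in WT males and 2.90, 0.974 and 0.379 CPM in Cux2 KO males, with overlap, and Rfx3 at 41.7, 54.9 and 39.5 CPM in WT males and 37.0, 35.2 and 46.0 CPM in Cux2 KO males, with overlap. Gmnc was at 0 in 2 of the Cux2 KO males and at 0.185 CPM in replicate 1.

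Rsph1 was at 9.03, 25.8 and 21.9 CPM in WT males and 84.1, 51.6 and 101 CPM in Cux2 KO males. The lowest Cux2 KO male lay above the highest WT male, at a log2 fold change of 2.05 ± 0.45 (SE) (adjusted p = 0.336 in edgeR, range over the alternatives 0.00192 to 1.00). In females it was at 64.0, 11.2 and 63.5 CPM in WT females and 44.3, 55.4 and 28.7 CPM in Cux2 KO females, with overlap. Drc3 was at 19.6, 14.9 and 17.1 CPM in WT males and 69.3, 38.6 and 51.9 CPM in Cux2 KO males, at a log2 fold change of 1.62 ± 0.26 (SE) (adjusted p = 0.326 in edgeR, range 2.52e-05 to 1.00). Ccdc153 was at 5.83, 16.9 and 15.2 CPM in WT males and 65.8, 30.9 and 53.5 CPM in Cux2 KO males. Tmem212 was at 7.35, 10.7 and 3.49 CPM in WT males and 35.8, 19.8 and 28.3 CPM in Cux2 KO males. For these the male groups were apart as well, at log2 fold changes of 1.98 ± 0.48 (SE) for Ccdc153 and 1.95 ± 0.47 (SE) for Tmem212. The gene 1700003E16Rik was at 3.06, 1.82 and 5.41 CPM in WT males and 15.1, 23.2 and 24.9 CPM in Cux2 KO males, at 2.61 ± 0.48 (SE) on the log2 scale (adjusted p = 0.326 in edgeR, range 1.41e-04 to 1.00).

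Dynlrb2 was at 13.8, 36.5 and 42.5 CPM in WT males and 73.9, 48.7 and 76.1 CPM in Cux2 KO males. Dnai1 was at 5.25, 2.94 and 1.87 CPM in WT males and 14.3, 6.67 and 18.7 CPM in Cux2 KO males. Tekt1 was at 9.96, 14.4 and 10.8 CPM in WT males and 41.1, 16.6 and 50.5 CPM in Cux2 KO males. The groups did not overlap for any of them, and Cux2 KO male replicate 2 was the lowest of its group for each. It was the lowest Cux2 KO male for 38 of the 50 members. Rsph9 was at 22.8, 42.2 and 72.1 CPM in WT males and 40.7, 45.1 and 45.4 CPM in Cux2 KO males and Ccdc40 at 14.3, 16.1 and 16.6 CPM in WT males and 24.9, 12.7 and 33.0 CPM in Cux2 KO males, with overlap. Spag6l was at 4.08, 20.5 and 3.24 CPM in WT males and 48.7, 9.65 and 36.2 CPM in Cux2 KO males and Zmynd10 at 4.91, 4.71 and 12.9 CPM in WT males and 19.6, 11.8 and 16.3 CPM in Cux2 KO males, with overlap in both.

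Whether the genotype acts differently in the sexes at P4 was tested as an interaction, the log2 fold change of males less that of females. In edgeR 0 of the 49 members tested passed, where 0% of all genes did, and DESeq2 called 1, 1700003E16Rik, as well as 0.864% of all genes, and the members were chosen with earlier results of these data known. Under an unadjusted p of 0.05, 8 members had a higher value in males and none in females, where 3.44% of all genes were higher. The median was 1.70 over the members tested and -0.03 over all genes, and 1.13 over the members without WT P4 female replicate 3. The interaction was 3.12 ± 0.82 (SE) for 1700003E16Rik (adjusted p = 0.629 in edgeR, range over the alternatives 0.0217 to 0.850). For Foxj1 it was 2.66 ± 0.85 (SE) (adjusted p = 0.639 in edgeR). Without WT P4 male replicate 2 edgeR called 1 member, Dnah12, and 0.0173% of all genes. A difference between the sexes in the effect of Cux2 on these genes was not shown.

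Other markers in the Cux2 KO and WT males of P4 were as follows. Over the 81 other axoneme genes the summed level was 1263, 951 and 1269 CPM in Cux2 KO and 791, 937 and 752 CPM in WT, higher in every Cux2 KO male. Over the 10 ependymal genes outside the axoneme it was 1238, 1603 and 1403 CPM and 1089, 932 and 1234 CPM, likewise apart, and over the 16 markers of radial glia and astrocytes 8366, 6253 and 10868 CPM and 6844, 7558 and 5780.1 CPM, with overlap. The choroid plexus genes, nearly all Enpp2, summed to 302, 403 and 279.6 CPM and 343, 245 and 499 CPM, with overlap, and Ttr was at 0 in all 6 libraries. Their part in the result was not tested.

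Between the sexes within a genotype, many members lay lower in females than in males of Cux2 KO at P4. Each female lay below each male for 15 of the 49 members tested, where 5.15% of all genes did. At an unadjusted p under 0.05, 14 were lower and none higher in females, where 2.32% of all genes were lower. After adjustment 0 passed in edgeR, where 0.0301% of all genes did, and 2 in DESeq2, Foxj1 and 1700003E16Rik, where 8 of 30235 genes (0.0265%) did. The study had itself named both as autosomal genes that differ between the Cux2 KO sexes. The members were chosen with earlier results of these data known, so these 2 calls are no independent support. Foxj1 was at 10.2, 9.40 and 9.25 CPM in the females and 28.4, 19.98 and 25.7 CPM in the males. The sexes were clear of each other, at a log2 fold change of -1.36 ± 0.20 (SE) (adjusted p = 0.682 in edgeR, range over the alternatives 1.98e-06 to 1.00). For 1700003E16Rik the levels were 5.76, 3.70 and 7.24 CPM in the females and 15.1, 23.2 and 24.9 CPM in the males. They too were apart, at -1.91 ± 0.33 (SE) (adjusted p = 0.823 in edgeR, range 2.12e-04 to 1.00). The median log2 fold change was -0.81 over the members tested and 0.00 over all genes.

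In Cux2 KO at E19, 0 of the 43 members tested passed in edgeR and 0 in DESeq2, where 0.0462% of all genes passed in edgeR and 0.0232% in DESeq2. Under an unadjusted p of 0.05, 17 members were lower in females, where 2.21% of all genes were, with a median log2 fold change of -1.29 over the members tested and 0.00 over all genes. Male replicates 1 and 3 were the highest of their group by summed level. Without them, an alternative chosen after seeing the data, 0 members had an unadjusted p under 0.05, where 0.793% of all genes were higher and 1.15% lower, and the median was 0.24. Since they were left out for being high, a smaller difference was set by that choice. Without male replicate 1 alone the median was -0.36. Foxj1 was at 34.1, 38.1, 17.5 and 18.3 CPM in the females, between the lowest and the highest male.

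In WT the sexes overlapped at each stage for nearly all members. At E19, 0 of the 36 tested passed in edgeR and 0 in DESeq2, where 0.0461% of all genes passed in edgeR and 0.0305% in DESeq2, and 1 member, Dnah7a, was lower in females at an unadjusted p under 0.05, where 1.70% of all genes were. For P4, 0 of the 49 tested passed in either tool, where 0% of all genes passed in edgeR and 0.301% in DESeq2, and 1 member, Dnai1, was higher in females at an unadjusted p under 0.05, where 3.50% of all genes were. Dnai1 was at 7.40, 5.79 and 10.5 CPM in WT females and 5.25, 2.94 and 1.87 CPM in WT males of P4. The females lay above the males, and the log2 fold change was 1.24 ± 0.51 (SE) (adjusted p = 0.681 in edgeR). For P7, 0 of the 49 tested passed in either tool, where 0.0247% of all genes passed in edgeR and 0.0412% in DESeq2, and 0 had an unadjusted p under 0.05, where 4.36% of all genes did in either direction. Without the low libraries of P7, 4 members were higher and 4 lower in females at an unadjusted p under 0.05, where 2.30% of all genes were higher and 4.55% lower, and 0 passed in edgeR, with 1 female left that is assumed to vary like the males. The median log2 fold change of WT females over males was -0.07 in the E19 libraries, 0.95 in those of P4 and -0.26 in those of P7, beside 0.00, -0.01 and -0.01 over all genes. Their size rests on single libraries. That of P7 turned to 0.30 with the replicate number as a block and ran from -2.74, without WT P7 female replicate 1, to 0.51, without WT P7 female replicate 2. That of P4 kept its direction, at 0.27 without WT P4 female replicate 3 and 1.42 without WT P4 female replicate 2. For E19 it was -0.34 with female replicate 3 left out and 0.22 with male replicate 4 left out.

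Other markers differed between these WT libraries of P4. Female replicate 3 was the highest of its group for 38 of the 50 members and female replicate 2 the lowest for 45. The interneuron genes summed to 617, 655 and 1179 CPM in the females and 369, 564 and 430.3 CPM in the males, the cell cycle genes to 2039, 2037 and 2403 CPM and 1547, 1769 and 1745 CPM and the intermediate progenitor genes to 509, 465 and 573 CPM and 395, 336 and 273 CPM. In all 3 the females lay above the males, with replicate 3 the highest. The oligodendrocyte lineage genes summed to 1557, 1734 and 632 CPM in the females and 3009, 2112 and 2271 CPM in the males, lower in the females and lowest in replicate 3. The endothelial and mural genes ran from 149 CPM in WT P4 female replicate 1 to 548 CPM in WT P4 male replicate 1, with a median of 287 CPM. The part of these lists in the difference between the sexes was not tested.

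The rest of the pathway gives a setting for the members. Of 88 other genes of the motile axoneme, 81 are in the table, and 35 rose and 4 fell of the 78 tested between WT E19 and WT P4, beside 22.6% and 23.3% of all genes, with a median log2 fold change of 1.44. Those with the largest rises were Rsph14 (8.93), Tekt3 (7.72) and Spaca9 (5.69), and those with the largest falls Dnah17 (-4.16), Stk36 (-2.49) and Spef1 (-2.17). Of 19 genes of the multiciliogenesis program outside the members, with the tubulin gene Tubb4b the most abundant, 7 rose and 1 fell of the 18 tested. The rises were led by Deup1 (3.26), which builds the deuterosome on which centrioles multiply, Rfx4 (2.08) and E2f5 (1.74), and the gene that fell was Rfx1 (-3.57). Of 59 genes of intraflagellar transport and the primary cilium, with Kifap3 the most abundant, 5 rose and 11 fell, with a median of 0.06. Their summed level was 1698 CPM in the lowest and 2525 CPM in the highest of the 43 libraries, a far smaller range than that of the members.

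In the knockout comparisons edgeR called 0 of the other axoneme genes after adjustment, as for the members. In Cux1 KO P4 males 26 of the 60 tested were lower and 1 higher at an unadjusted p under 0.05, where 12.3% of all genes were lower. Genes at 0 in both Cux1 KO libraries passed the filter on low counts through the WT males alone. This count is therefore partly set by that filter and does not by itself show a drop. In Cux2 KO P4 males 14 of 77 were higher and none lower, beside 2.79% of all genes higher, and in Cux2 KO E19 males 28 of 58 were higher and none lower, beside 4.80%. For the genes of intraflagellar transport and the primary cilium the same counts were 13 lower and 1 higher of 56 in Cux1 KO P4 males, against the same 12.3% lower over all genes, and 0 in either direction in Cux2 KO P4 males. DESeq2 calls were not counted for these lists.

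Ependymal genes outside the axoneme split by gene between WT E19 and WT P4. Of the 10, 8 rose and 2 fell. Sntn, a gene of the ciliary tip, rose by 7.85 on the log2 scale, Aqp4, a water channel, by 5.07, and S100b by 4.94. Cd24a fell by 3.08 on the log2 scale and Vim by 1.74. Aqp4 and S100b are genes of astrocytes as well, and Aqp4 stands on both lists. Of the 13 choroid plexus genes 4 could be tested and 3 rose, Folr1 (4.64), Enpp2 (3.70) and Sostdc1 (1.99). Of 5 deep-layer neuron markers, led by Bcl11b, 1 fell, Nxph4 (-3.00).

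Since many structural genes were high or low in the same libraries as Foxj1 in Cux2 KO E19 males and in WT P7, the promoters of the members were searched for the letters that RFX and forkhead factors are known to bind. RefSeq promoter windows of 300 bases, 250 before and 50 after the start of transcription (GRCm38.p6), matched 41 of the 50 members, and both strands were read. The short RFX motif GTTGCCA was in windows of 7 of the 41, or 17.1%, and of 5.02% of all genes with a window. The longer X-box core GTTNCCATG, which shares its first letters with the short motif where N is G, was in those of 3, or 7.32%, against 2.22%. The forkhead motif GTAAACA was in those of 2, or 4.88%, against 4.05%. A match is a description of these letters and not a site of binding. The 250 bases before the start are shown for the neighbours Mcidas (chr13:112993618-112993867, plus strand) and Ccno (chr13:112987552-112987801, plus strand), regulators that were high together in Cux2 KO E19 male replicate 1, for Cfap44 (chr16:44394549-44394798, plus strand), which holds the short RFX motif at 2 places, and for Ak7 (chr12:105705732-105705981, plus strand), which holds the forkhead motif. Capitals mark the match, which lies on the other strand in Cfap44 and Ak7, and bases run 5′ to 3′ on the gene's strand.
Mcidas: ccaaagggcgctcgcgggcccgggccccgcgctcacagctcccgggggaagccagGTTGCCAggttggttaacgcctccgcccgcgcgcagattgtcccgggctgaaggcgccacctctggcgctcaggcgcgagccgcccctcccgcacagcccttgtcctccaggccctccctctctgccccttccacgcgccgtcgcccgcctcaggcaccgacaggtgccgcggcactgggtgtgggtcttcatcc
Ccno: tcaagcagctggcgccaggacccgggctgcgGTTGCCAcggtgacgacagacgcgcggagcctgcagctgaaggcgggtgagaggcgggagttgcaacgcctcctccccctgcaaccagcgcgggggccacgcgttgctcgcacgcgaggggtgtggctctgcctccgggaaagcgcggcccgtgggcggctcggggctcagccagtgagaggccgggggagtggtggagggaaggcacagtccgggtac
Cfap44: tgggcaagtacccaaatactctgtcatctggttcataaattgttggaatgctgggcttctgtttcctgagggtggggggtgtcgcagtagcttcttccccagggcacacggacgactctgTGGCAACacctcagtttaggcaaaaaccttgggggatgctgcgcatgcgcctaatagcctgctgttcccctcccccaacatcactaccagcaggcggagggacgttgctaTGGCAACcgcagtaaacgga
Ak7: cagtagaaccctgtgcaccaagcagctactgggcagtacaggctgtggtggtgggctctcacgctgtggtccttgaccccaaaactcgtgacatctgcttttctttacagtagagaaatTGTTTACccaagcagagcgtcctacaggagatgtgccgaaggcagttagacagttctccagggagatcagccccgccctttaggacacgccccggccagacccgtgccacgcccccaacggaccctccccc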

How the data were processed

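RNA was measured in 43 libraries of sorted cells. The deposited values are raw counts per gene, which the authors made with HISAT2 and featureCounts on GRCm39. The members, their roles and the lists of other genes were chosen with earlier results of these data known. Genes were fitted with edgeR 4.0.16 in R 4.3.3 (TMM, filterByExpr, quasi-likelihood test), usually a pair of groups per fit, with Benjamini-Hochberg adjustment over all genes tested. A call needs an adjusted p under 0.05 and a log2 fold change over 0.5 in size for E19 alone, or over 1 where P4 or P7 is compared, and no fold for the interaction. The floor of 3 counts per library covers counting error only. Alternatives were DESeq2 1.42.0, its size factors, every gene kept, a common fit per stage, the replicate number as a block, and each library left out. The labels give replicate numbers but no pairing of animals, so fits were unpaired. Every member may be named; Foxj1, the other regulators, called members (at most 10 per comparison) and the most abundant of each role are given in full, and from each other list at most 3 called genes per direction and the most abundant. Lengths and shared windows are from GENCODE M39.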

Additional observations from a re-analysis of the deposited data

Results flagged for a closer look

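Single libraries far from the rest of their group were looked for in 32 series of values, in each of the 6 groups of 4 libraries at E19, or 192 sets in all, where chance sets about 1 in 20 apart. Groups of P4 and P7, with 2 or 3 libraries, were not searched. In 14 sets the highest or lowest library lay far from the others. Most were genes with few counts at E19. Where all other libraries of a set were at 0, any count set the highest apart, so the rate of 1 in 20 does not apply. Ccdc153 was highest at 0.566 CPM in Cux1 KO E19 male replicate 4, at 0.185 CPM in WT E19 female replicate 4 and at 0.215 CPM in WT E19 male replicate 4. Spag17 was highest at 0.393 CPM in Cux1 KO E19 female replicate 1, at 0.0567 CPM in Cux1 KO E19 male replicate 1 and at 0.441 CPM in Cux2 KO E19 female replicate 4. Dnaaf1 was highest at 0.247 CPM in WT E19 female replicate 4, and Dnah12 at 0.716 CPM in WT E19 male replicate 4.

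Among genes with more counts, Foxj1 was highest at 27.2 CPM in WT E19 female replicate 3, and Rfx2 at 15.9 CPM in Cux2 KO E19 male replicate 1, the library in which most members were highest. Zmynd10 was highest at 6.29 CPM and Spag6l at 4.40 CPM, both in Cux1 KO E19 male replicate 4. The summed level of the regulators was lowest at 82.3 CPM in Cux2 KO E19 female replicate 4, and that of the radial spoke genes at 20.8 CPM in WT E19 female replicate 2.

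In 24 pairs of contrasts, each checked in all 32 series, 1 series in 1 pair went in opposite directions in every library. The summed level of the doublet microtubule genes in Cux1 KO was 1.25 times the WT mean in E19 females, where every Cux1 KO library was above every WT library, and 0.156 times the WT mean in P4 males, where every Cux1 KO library was below. The alleles differ between these stages, and the difference was not tested.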

How the results depend on the processing

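Over 15 comparisons, 195 alternative counts of members called were made, and 179 were within 1.5 times the count reported. Between WT P4 and WT E19 the count was 30, stayed at 27 to 33 with each library left out, and was 25 with the replicate number as a block. Between WT P7 and WT P4 it was 1, and 1 with the block, but 0 to 1 with each library left out and 0 without both low P7 libraries. In the other 13 comparisons the count was 0, also with the replicate block. DESeq2 called 1 member in Cux1 KO against WT E19 males, 12 in Cux1 KO against WT P4 males, 1 in Cux2 KO against WT E19 males, 5 in Cux2 KO against WT P4 males, 2 between Cux2 KO sexes at P4 and 1 in the interaction. With all P4 groups in a common fit 17 were called in Cux1 KO P4 males, and with no filter 2 in Cux2 KO E19 males, Dnai2 and Ccdc153. With each library left out the count was 0 to 3 in Cux1 KO P4 males and 0 to 1 in the interaction. The cause was not tested.

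Of 1115 alternative values of 84 named results, 1074 kept their direction and side of the threshold, 7 were weaker, 26 stronger and 8 reversed. The reversals came without Cux2 KO E19 male replicates 1 and 3, chosen after seeing the data. In Cux2 KO over WT E19 males, Rsph1 was then at -0.58 and Ak7 at -0.23 on the log2 scale. In Cux2 KO females over males at E19, Ak7 was at 0.29, Dnah9 at 0.27, Cfap206 at 0.29, Cfap65 at 0.24, Hydin at 0.49 and Dynlrb2 at 0.69. These libraries were left out for being high in the members, so lower values in Cux2 KO males were set in part by that choice. Fewer libraries were used there as well, and their part was not tested. Depth limits genes with few counts, such as Ccdc153, Spag17 and Tmem212 at E19, and the Cux1 KO P4 males, with 2 libraries, limit every value that rests on them.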

Other observations

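Markers of other cells were counted between WT E19 and WT P4 as well (edgeR, thresholds as for the cilia genes), where 22.6% of all genes rose and 23.3% fell. Among the markers of radial glia and astrocytes, 8 rose and 3 fell of the 16 tested, with Aqp4 (5.07), the gap junction gene Gja1 (4.95) and Hes5 (3.82) up and Fabp7 (-4.25) down on the log2 scale. Among those of upper-layer neurons, 1 rose and 10 fell of the 12 tested, with Slc17a7, the vesicular glutamate transporter, down by the most (-7.63). Among endothelial and mural genes, 9 rose and 0 fell of the 10 tested, and among oligodendrocyte lineage genes, 5 rose and 1 fell of the 9 tested. Among cell cycle genes, 5 rose and 0 fell of the 11 tested, among intermediate progenitor genes, 1 rose and 3 fell of the 5 tested, and among interneuron genes, 2 rose and 2 fell of the 9 tested.

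Between WT P4 and WT P7, 1.42% of all genes rose and 2.05% passed in either direction. Of the 9 oligodendrocyte lineage genes tested, 4 rose and 0 fell. Among ependymal genes outside the axoneme, 2 rose and 0 fell of the 10 tested, S100b (2.39) and Aqp4 (1.30). Among the genes of the multiciliogenesis program, 0 rose and 2 fell of the 19 tested, the centriole duplication genes Plk4 (-1.17) and Ccp110 (-1.06). Of the other motile axoneme genes 0 rose and 0 fell of the 78 tested in edgeR, with 1 higher and 1 lower at an unadjusted p under 0.05, which 22.0% of all genes had.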
